A study of Drosophila melanogaster with 2 samples.

Results

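The regions described here are 295 intronic binding summits of the dati-eGFP protein that lay near, but not at, a transcription start site. They made up 15.6% of the 1892 summits of the optimal peak set on the 6 main chromosome arms, with an exact binomial 95% interval of 14.0 to 17.3%. A summit, the base where a peak was highest, was chosen when it lay inside an annotated gene, in no annotated exon, and more than 500 but at most 2000 bp from the nearest annotated transcript start. No measured value entered that choice. The samples formed 1 group of 2 biological replicates: whole Drosophila melanogaster embryos of 8 to 24 hours, strain dati-GFP, with a transgene that fused dati to eGFP. Protein-bound chromatin was recovered with an antibody against GFP, and the possible control experiment that the labels name was not analysed here. The optimal set holds peaks that passed a threshold on the irreproducible discovery rate (IDR), the share of calls at that strength or above that would not recur between repeats. Whole embryos mix all tissues, so binding in few cells and weak binding in many cannot be told apart, and the labels do not say in which cells the fusion gene is active.

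As background, dati encodes a zinc finger protein of the nervous system. Fly genes often have long first introns, and these commonly hold enhancers as well as the start sites of further transcripts, so a site inside a gene can lie downstream of one promoter and upstream of another. ChIP-seq reads the DNA that was crosslinked to the tagged protein, directly or through a partner, and a summit marks the centre of that DNA rather than a defined binding site.

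Some of the strongest of these regions are shown first as examples of the base composition described later. Each line is 81 bases centred on a summit, read 5′ to 3′ on the plus strand of the RefSeq Release 6 genome (build dm6), and the capitals mark the longest unbroken run of A and T. The regions lay at chr2L:6612668-6612748 (CG11050), chrX:4910328-4910408 (CG32772), chr3L:14759459-14759539 (Trl), chrX:5918879-5918959 (CG3726), chr2L:16351171-16351251 (chif), chrX:9579262-9579342 (LPCAT) and chrX:13640470-13640550 (NFAT), each in an intron of the named gene.
CG11050: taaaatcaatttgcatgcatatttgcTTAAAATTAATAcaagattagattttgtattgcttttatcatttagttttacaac
CG32772: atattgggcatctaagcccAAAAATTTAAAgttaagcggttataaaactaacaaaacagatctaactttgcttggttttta
Trl: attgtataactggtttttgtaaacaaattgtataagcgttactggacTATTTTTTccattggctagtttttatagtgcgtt
CG3726: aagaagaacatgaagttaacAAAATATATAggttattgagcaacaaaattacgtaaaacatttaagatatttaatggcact
chif: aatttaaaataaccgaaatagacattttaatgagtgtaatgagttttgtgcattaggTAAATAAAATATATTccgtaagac
LPCAT: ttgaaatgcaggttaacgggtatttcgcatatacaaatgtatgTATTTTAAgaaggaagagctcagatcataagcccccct
NFAT: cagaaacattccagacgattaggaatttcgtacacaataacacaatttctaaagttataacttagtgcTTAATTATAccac

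GC content of these 7 windows lay between 21.0% in CG11050 and 38.3% in LPCAT, and the longest run of A and T between 8 bases in Trl and LPCAT and 15 bases in chif. The next pair stands at the low and the high end of GC content. The Dhc64C region (chr3L:4824945-4825025, dm6, plus strand, signal 115.1) had a GC content of 17.3% and a run of 17 bases in capitals. The elav region (chrX:522606-522686, dm6, plus strand, signal 89.91) had a GC content of 60.5% and no run of A and T longer than 3 bases.
Dhc64C: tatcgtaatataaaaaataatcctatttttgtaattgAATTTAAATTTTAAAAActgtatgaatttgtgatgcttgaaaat
elav: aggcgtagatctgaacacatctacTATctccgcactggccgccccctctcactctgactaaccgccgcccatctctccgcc

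A last set shows short words that were more frequent at the summits than beside them, with the word, on either strand, in capitals. The word TATAAA is marked in CG32772, TAATTA in Btk (chr2L:8292577-8292657), TACTAA in tmod (chr3R:30540384-30540464), and ATATTA, which lies on the minus strand and so appears as TAATAT, in MYPT-75D (chr3L:18640669-18640749) and CHES-1-like (chrX:7706984-7707064). All are on the plus strand of dm6.
CG32772: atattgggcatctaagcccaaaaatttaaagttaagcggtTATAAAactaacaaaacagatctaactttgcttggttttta
Btk: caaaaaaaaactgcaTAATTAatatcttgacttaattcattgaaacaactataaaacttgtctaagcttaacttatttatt
tmod: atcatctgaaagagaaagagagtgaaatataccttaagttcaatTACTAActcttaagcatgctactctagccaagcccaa
MYPT-75D: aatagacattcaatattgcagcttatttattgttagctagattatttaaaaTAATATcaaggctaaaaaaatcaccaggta
CHES-1-like: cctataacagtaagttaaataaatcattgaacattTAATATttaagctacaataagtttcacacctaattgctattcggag

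Summits in introns became sparser with distance from a start site. Between 500 and 2000 bp there were 25.8 summits per Mb of intron that met the same rule (11.4 Mb, 8.54% of the arms), against 9.32 per Mb of intron farther than 2000 bp from a start. The density was also above the 14.9 per Mb of intergenic sequence at the same distances, the 2.65 per Mb of exon farther than 500 bp from a start and the 14.1 per Mb of the arms as a whole. It was below the 48.2 per Mb within 500 bp of a start. Within the range the nearest bin, over 500 to 750 bp, held 38.7 ± 4.12 summits per Mb (88 summits, counting SE), and the bins beyond it held 25.8 ± 3.47, 22.0 ± 3.35, 22.6 ± 3.53, 22.0 ± 3.61 and 19.8 ± 3.55 per Mb. The first bin therefore stood above the others by more than its counting error, while the 5 bins from 750 to 2000 bp lay within about that error of their neighbours. Just nearer, over 400 to 500 bp, introns held 35.9 ± 6.26 summits per Mb, and just farther, over 2000 to 3000 bp, 13.9 ± 1.61, so neither limit of the rule fell at a gap in the summits. All of these values describe the distance that chose the regions.

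**Figure D1:**
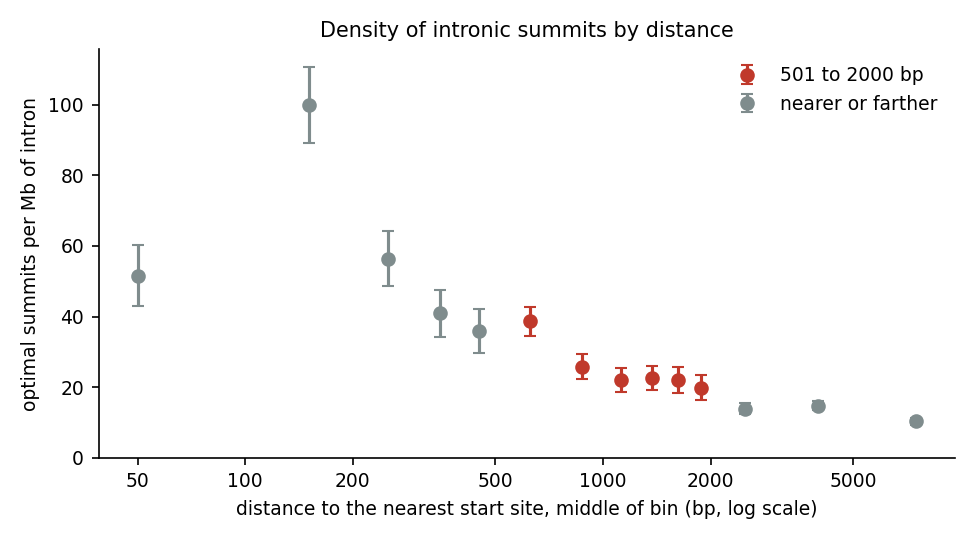
Density of optimal summits in introns (summits per Mb of intron) against distance to the nearest start site (bp, log scale, middle of each bin), with bars of 1 Poisson standard error. The bins of the chosen regions fall from 38.7 to 19.8 per Mb, below the 99.8 per Mb over 100 to 200 bp and above the 13.9 per Mb over 2000 to 3000 bp.

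The regions nearest the limits of distance, a pair on each side, are given as a description. Inside the lower limit, the summits in Pen, the importin alpha gene, and CG42671 lay 504 and 509 bp from a start, with signals of 119.8 and 156.1. Just outside it, the summits in jar and CG5171 lay 496 and 494 bp away, with signals of 67.59 and 87.52. Inside the upper limit, oys and fru, a gene of sex-specific behaviour, lay at 1995 and 1985 bp with signals of 71.28 and 60.77. Just outside it, lncRNA:CR44320 and lab, a Hox gene, lay at 2006 and 2013 bp with signals of 108.6 and 65.26.

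The X chromosome was the arm with most of these regions. It held 77 of the 295, or 26.1% (21.2 to 31.5%), against 18.4% of all optimal summits and 19.3% of the intron sequence open to the rule. Per Mb of that sequence X had 35.0 regions, and arms 2L, 2R, 3L and 3R had 19.3, 25.5, 24.7 and 25.7. Promoter summits on the same arms ran only between 46.8 and 52.1 per Mb, with X at 48.2, and introns farther than 2000 bp from a start had 11.6 per Mb on X against 11.2 on 2L and 7.57 to 9.15 on the other 3 long arms. The interval of the X share lay above both comparison shares, while arm 2L, with 40 regions, had 13.6% of them (9.87 to 18.0%), just below its 18.1% of the sequence. These intervals count regions as independent, but on X CHES-1-like and CG1677 held 5 regions each and NFAT and Tlk 3 each. The shares were not recomputed with each host gene counted once, so the X excess may be smaller than its interval makes it look. Chromosome 4, which carries dati itself, had 0 regions in 0.129 Mb of such intron, and a count of 0 of 295 allows a share of up to 1.24% (exact interval). That bound lay above its 1.13% of the sequence and its 0.106% of all optimal summits, so the count does not set these regions apart. The sex of the embryos is not given in the labels, and its part in the X share was not tested.

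The signal of a peak is the authors' own value, its scale is unknown here, and it ranks peaks within one list. Over the 295 regions it had a median of 81.2, with quartiles of 61.6 and 119 and a range of 2.70 to 607. Introns farther from a start had a median of 73.1, promoter summits 84.2, intergenic summits in the same range 79.9 and all optimal summits 78.6. Near and far members were alike in this: the median was 83.5 for the 143 regions up to 1000 bp away and 79.0 for the 152 farther than 1000 bp. Among the 100 optimal peaks of highest signal 19 were members, and among the 473 highest 83, where members were 15.6% of all optimal summits.

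The lowest signals belonged to summits that sat on the shoulder of a stronger peak. There were 9 members overlapped by a stronger optimal peak whose summit lay 200 to 206 bp away, in bmm, CG1677, kuk, CG5953, htl, fray, oys, ph-p and fz2, with signals between 2.704 and 41.70. They include all 8 members with a signal under 30, of 21 such peaks in the whole set. The replicate values at the 9 regions are those of the strongest overlapping place in each replicate's list, which the stronger neighbour overlaps too. Without the 8, signal ran between 41.70 and 607.4 over 287 regions.

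How well the replicates repeated each other at these regions was read from 3 further lists. The regions come from a set already thresholded on IDR, so the values here and below do not measure how repeatable binding is in general. Each replicate has its own thresholded set, made from that replicate alone, and a conservative set was made from peaks that paired between the replicates. Of the 295 regions, 114 overlapped a peak in both own sets by at least 1 bp, or 38.6% (33.1 to 44.5%), against 35.9% of all optimal peaks. The share was 28.8% (24.3 to 33.6%) in introns farther than 2000 bp, 40.3% (37.0 to 43.6%) at promoters and 39.1% (29.9 to 48.9%) in intergenic sequence at the same distance. The interval of the members overlapped those of the last pair and met that of the deeper introns only at its edge. Replicate 1's own set held 191 of the regions (64.7%), where 59.1% of all optimal peaks overlapped it, and replicate 2's set held 132 (44.7%), where the share of all was 44.4%. In replicate 1 alone there were 77 regions (26.1%, against 23.2% of all optimal peaks), in replicate 2 alone 18 (6.10%, against 8.46%), and in neither 86 (29.2%, 24.0 to 34.7%, against 32.5%). The conservative set covered 234 (79.3%), against 79.6% of all. Regions in both own sets had a median signal of 132, and those in neither a median of 59.0.

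**Figure D2:**
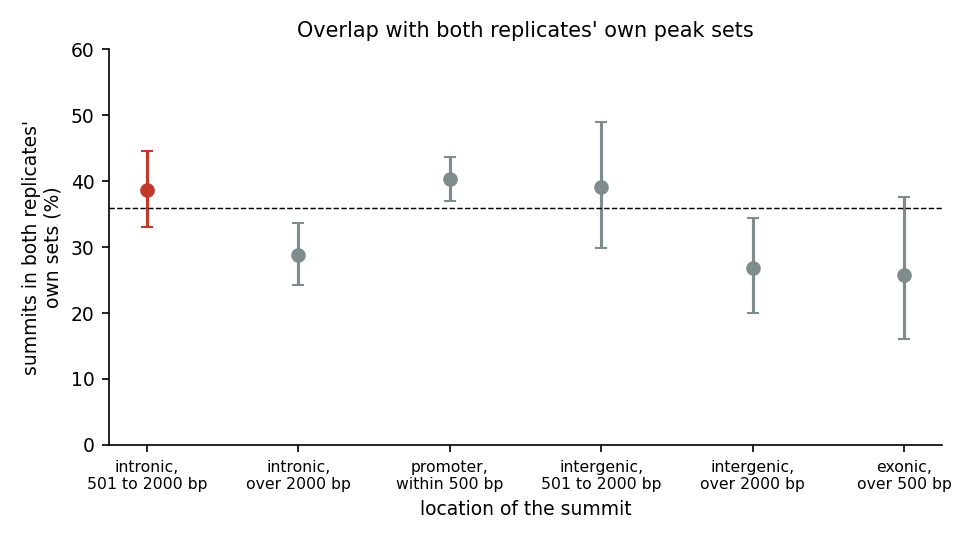
Share of optimal summits that overlapped a peak in both replicates' own sets (%), by location of the summit, with exact binomial 95% intervals. The chosen intronic regions, in red at the left, stand at 38.6%, above the 28.8% of deeper introns and near the dashed line at 35.9% for all summits.

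Signal in the ranked lists, which hold every place called at a loose threshold, could be read in both replicates at 291 of the 295 regions. The median was 45.4 in replicate 1 and 38 in replicate 2, and the value was higher in replicate 1 at 199 regions and in replicate 2 at 92. Over all optimal peaks read in both lists, replicate 1 was likewise the higher at 1138 of 1852 and replicate 2 at 714. Replicate 2 divided by replicate 1 gave a median of 0.844 (5th to 95th percentile 0.435 to 1.64), against 0.897 (0.455 to 1.75) over all optimal peaks. Of the 291 ratios 261 lay between 0.5 and 2, a count not made for all optimal peaks. Across the 291 regions Pearson's correlation was 0.867 and Spearman's 0.610. These values include the 9 shoulder regions with values shared with their neighbours, and are across regions of the same pair of libraries, which share the caller and the genome, and regions are not independent replicates. In deeper introns the values were 0.776 and 0.458 over 378 regions, and at promoters 0.916 and 0.635 over 852.

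**Figure D3:**
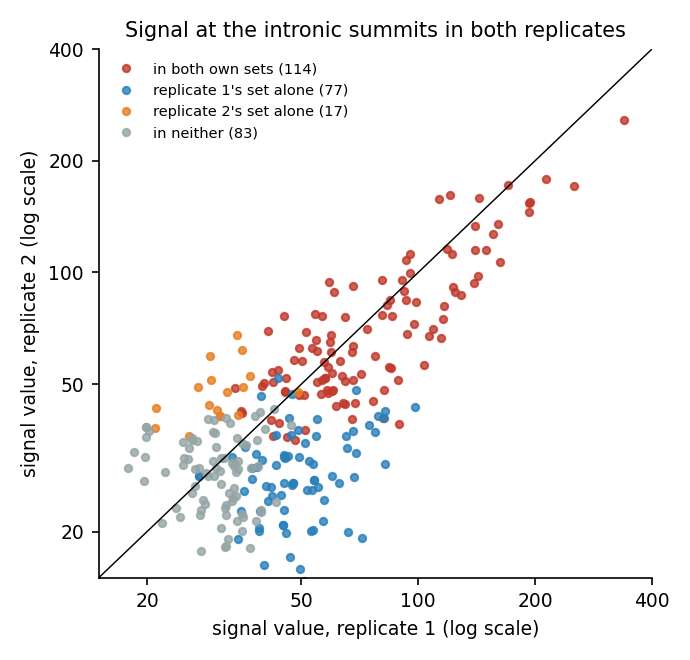
Signal value of each of 291 intronic regions in replicate 1 and replicate 2 (both log scales), coloured by the own sets that held the region, with the line of equal values. Most points lie below the line, since replicate 1 was higher at 199 of the 291, as it was at 1138 of 1852 over all optimal peaks. The regions in neither set crowd at low values in both.

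A few regions of high signal differed between the replicates. Among the 100 members of highest signal, the largest gap in rank was in Dok, an adaptor of receptor kinase signalling (signal 109.0), with 81.87 in replicate 1 and 30.33 in replicate 2. Ptpmeg, a protein tyrosine phosphatase gene, went the other way, with 40.94 in replicate 1 and 69.68 in replicate 2. In subdued, which encodes a chloride channel, the values were 89.09 in replicate 1 and 39.00 in replicate 2. In sty, the gene of the receptor kinase inhibitor Sprouty, they were 65.15 and 36.19, and in ps, the gene of the splicing factor Pasilla, 77.38 and 37.16, with replicate 1 first in both. Ptpmeg and subdued were in both own sets, and Dok, sty and ps were in that of replicate 1 alone.

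Most of the regions lay in a first intron, which was counted as the intron after the first exon of any transcript. That was so for 247 of 295, or 83.7% (79.0 to 87.8%), against 64.4% of 114392 positions, every 100th base, of the sequence that met the rule, and 60.4% (55.3 to 65.3%) of summits in deeper introns. The host gene coded for protein in 292 cases. The introns were long, with a median of 6309 bp, and 267 regions (90.5%) lay in introns over 1000 bp. Intron length was not computed for the positions, and the rule itself leaves out intron sequence close to a start. These lengths therefore do not set the regions apart. Few were near an exon: 8 regions (2.71%, 1.18 to 5.27%) lay within 100 bp of one, against 17.3% of the positions, and 191 (64.7%, 59.0 to 70.2%) were over 500 bp away, against 55.3%. The region of highest signal went against this pattern, because the CG11050 summit lay in a second intron of only 140 bp.

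The nearest start site belonged to the host gene for 256 regions, 86.8% (82.4 to 90.4%), against 71.1% of the positions. Direction was less distinct. Downstream of the nearest start lay 188 regions, 63.7% (58.0 to 69.2%), and 64.6% of the positions did too. The regions downstream of a start of their host numbered 178 (60.3%, 54.5 to 66.0%), where the positions gave 54.6%. Another 78 (26.4%, 21.5 to 31.9%) lay upstream of a start of their own host, that is inside the gene but before one of its internal promoters, where the positions gave 16.6%. The interval of those upstream lay above the share of positions, and that of the downstream regions reached down to it. Median signal was 89.7 upstream of a host start, 78.5 downstream of one and 81.1 beside the start of another gene. The remaining 39 regions (13.2%, 9.57 to 17.6%) were nearest to the start of another gene, protein-coding in 21 cases and not in 18, where 28.9% of the positions were.

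A promoter summit at the same start site was the exception. For 37 regions, 12.5% (8.99 to 16.9%), an optimal summit also lay within 500 bp of their nearest start, against 9.59% (6.84 to 13%) for deeper introns and 5.97% of all 23584 annotated start sites. The share was 6.87% without replicate 1 and 7.32% without replicate 2, where fewer summits remained and the other shares were not recomputed. The intronic signal was the higher of the pair in 17 of the 37. In neur, which encodes a ubiquitin ligase of the Notch pathway, the intronic region had 134.5 and the promoter summit 63.58. In numb, whose product restrains Notch in asymmetric division, the intronic region had 57.79 and the promoter summit 151.1, and in elav, a neuronal RNA-binding protein gene, 89.91 and 195.6. The regions also lay near other summits more often than deeper intronic ones: 58 of 295 (19.7%, 15.3 to 24.7%) had another within 1000 bp, against 8.29% (5.74 to 11.5%) of deeper intronic summits and 11.1% of all. Lying within 2000 bp of a start is how the regions were chosen, and its part in these 2 shares was not tested.

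The 20 regions of highest signal were all in both replicates' own sets and in the conservative set. That goes with the signal that picked them: members among the peaks above the median signal were in both own sets in 71.0%, against 38.6% of all members. Other peaks of equal rank were not counted. The first was in CG11050, with a signal of 607.4, and 340.2 and 258.0 in the lists of replicates 1 and 2. It lay 1021 bp downstream of a start of that gene. The second, in CG32772, had 426.9 (252.8 in replicate 1, 171.1 in replicate 2), 1266 bp downstream of a start. Both came from genes known by number only.

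Further genes among the 20 encode DNA-binding proteins. HmgZ, a high mobility group gene, had 396.9 (212.9 in replicate 1, 178.7 in replicate 2) at a summit 572 bp upstream of one of its starts, in sequence shared with its neighbour HmgD. In Trl, the gene of the GAGA factor, which opens chromatin at GA-rich sites, the signal was 350.0 (193.1 in replicate 1, 145.9 in replicate 2), 1537 bp upstream of an internal start. Adf1, a promoter-binding factor gene, had 340.5 (193.0 in replicate 1, 154.1 in replicate 2), and NFAT, the fly member of a calcium-responsive family in vertebrates, 281.8 (156.3 in replicate 1, 127.1 in replicate 2). A forkhead factor gene, CHES-1-like, had 235.5, with 142.5 in replicate 1 and 97.71 in replicate 2.

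The others covered varied functions. In chif, whose product is needed for replication and gene amplification, the signal was 338.7 (170.0 in replicate 1, 171.7 in replicate 2). The lipid acyltransferase gene LPCAT had 309.4 and CG3726 had 347.4. In mub, which encodes an RNA-binding protein, the signal was 280.0, and the value of replicate 2, 157.4, exceeded the 112.8 of replicate 1. In cno, the gene of the adherens junction protein Canoe, it was 266.8, again with the higher value in replicate 2 (121.1 in replicate 1, 161.8 in replicate 2). In brat, a translational repressor gene that limits neuroblast growth, the signal was 236.0 and the replicates were close at 118.9 and 115.5. Others were lncRNA:CR44810 (273.4), CG9663 (269.7), Reph (266.2), MYPT-75D (252.3), norpA, the phospholipase C gene of phototransduction (237.9), and the kinase gene Csk (225.8). Replicate 2 was the higher in chif, LPCAT, mub and cno and replicate 1 in the other 16.

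**Figure D4:**
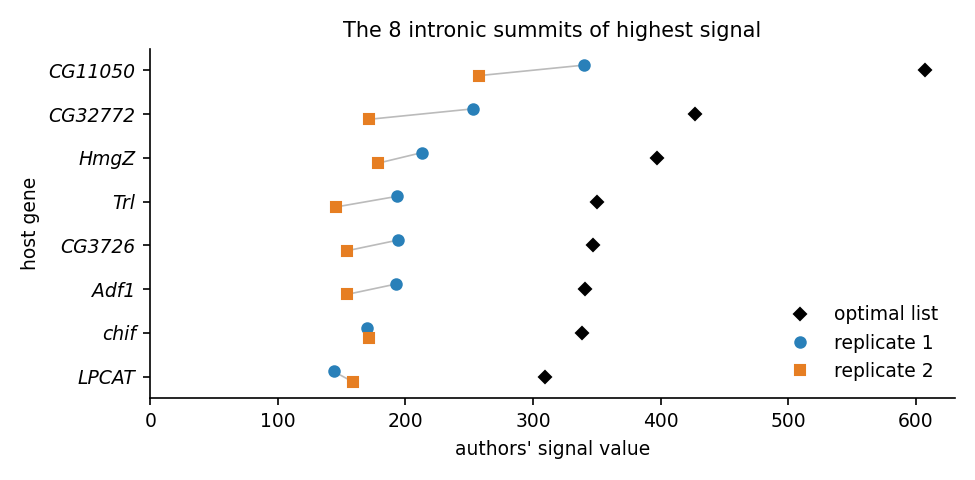
Authors' signal value at the 8 chosen intronic regions of highest signal, by host gene, in the optimal list (diamonds) and in the ranked lists of replicate 1 (circles) and replicate 2 (squares), which are separate lists and not on the optimal list's scale. CG11050 leads in all 3 lists, and replicate 1 is higher than replicate 2 in 6 of the 8.

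The 295 regions fell in 253 host genes, 31 of which held at least 2. CHES-1-like held 5 of its 8 optimal summits in this class, spread over 8606 bp of a 27048 bp gene. Their signals were 235.5, 117.6, 81.18, 76.70 and 64.12, and 3 of the 5 were nearest to a start of the gene itself and 2 to that of lncRNA:CR43287. CG1677 also held 5, with signals of 108.6, 103.2, 69.38, 59.49 and 23.63 over 44304 bp, but none was nearest to its own starts: the nearest were those of CBP, unc-119 and brk, genes nested within it. The lowest of them, 23.63, was a shoulder of the 59.49 region. HmgZ, NFAT, Tlk, the Tousled-like kinase gene, Shrm and Src64B held 3 each. In HmgZ, NFAT and Tlk, which had the highest summed signal of these, the members had signals of 63.74 to 396.9, 55.80 to 281.8 and 55.51 to 121.6. Members of 1 gene share its sequence and are not independent.

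Genes were also read against 17 lists of pathways, organs and cell types. A gene counted if it hosted a region or was the gene of its nearest start, which was so for 283 of 13945 protein-coding genes, or 2.03%. The genes that counted were long, with a median of 15014 bp against 2166 bp for all, and of the 1977 genes of at least 10000 bp 186 counted, or 9.41% (8.16 to 10.8%). Of the 653 genes in any list, whose median length was 13265 bp, 58 counted, or 8.88% (6.81 to 11.3%). That interval included the share of long genes.

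The list of receptor tyrosine kinase and Ras signalling had the highest share, 8 of 38 genes or 21.1% (9.55 to 37.3%), with a median gene length of 14401 bp. Among ligands it held ths, an FGF (signal 119.2, with 51.27 in replicate 1 and 69.19 in replicate 2), and Pvf3, a PDGF- and VEGF-like ligand (67.62). Among receptors it held InR, the insulin receptor (131.4, with 59.48 in replicate 1 and 67.59 in replicate 2), Pvr (63.62) and the FGF receptor htl (13.19, a shoulder of a promoter peak). Inside the cell it held the adaptor drk (164.7, with 84.45 in replicate 1 and 84.07 in replicate 2), the kinase Src64B (73.17) and the inhibitor sty (105.9). The drk summit was nearest to the start of mars, not of drk. That interval began just above the 9.41% of long genes, among 17 lists read. It counts htl, whose only region is a shoulder, and was not recomputed without it, so the list is not set apart from long genes.

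Ecdysone response genes gave 4 of 22 (18.2%, 5.19 to 40.3%): ImpL2, an insulin-binding secreted protein gene (190.5), the receptor gene EcR (114.6), the coactivator gene tai (61.01) and the nuclear receptor gene Hr4 (55.04). The EcR summit was nearest to a tRNA gene's start and that of Hr4 to CR46447. The Wnt, Hedgehog and Dpp list gave 5 of 41 (12.2%, 4.08 to 26.2%). They were shn (185.6), Mad, the transducer of Dpp (175.4), the ligand gene Wnt5 (103.5, in an intron of Ggt-1), the repressor gene brk (59.49, in an intron of CG1677) and the receptor gene fz2 (2.704, a shoulder of an exonic peak). The fz2 summit was nearest to the start of lncRNA:CR43893. Notch pathway genes gave 2 of 21, neur (134.5) and numb (57.79), and the list of JAK/STAT, Hippo and apoptosis 3 of 32, the caspase inhibitor gene Diap1 (124.3), Stat92E (90.05) and mats (69.62).

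The 3 lists of neuronal genes gave shares below the 9.41% of long genes, with intervals that included it. Their median gene lengths were 7405, 40501 and 27725 bp in the order below. The long genes had a median of 20567 bp, so their share is not matched to these lists for length. Neuroblast, proneural and pan-neuronal genes gave 3 of 45 (6.67%, 1.40 to 18.3%): brat (236.0), zfh1 (133.4, with 81.49 in replicate 1 and 48.21 in replicate 2) and elav (89.91). Axon guidance and adhesion genes gave 4 of 50 (8.00%, 2.22 to 19.2%), with Ten-a (98.18), the netrin receptor gene fra (93.24) and the netrin gene NetB (83.24) the highest. The fra summit was nearest to the start of CG33752 and that of NetB to the start of hog. Synaptic, transmitter and channel genes gave 3 of 58 (5.17%, 1.08 to 14.4%). They were the potassium channel gene KCNQ (200.4, nearest to the start of mlt) and Syn, the synapsin gene (81.14, nearest to the start of Timp). The last was the glutamate receptor gene Nmdar1 (70.03, inside both Nmdar1 and Itpr and nearest to the start of Itpr). Glial and blood-brain barrier genes gave 4 of 22 (18.2%, 5.19 to 40.3%), with the glutamine synthetase gene Gs2 (114.8), Tre1 (67.87) and loco (54.06) above the htl shoulder.

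Patterning and organ identity factors gave 5 of 86 (5.81%), with zfh1, ush (94.79), a GATA cofactor gene, and rib (84.59) the highest. BTB zinc finger and related genes gave 3 of 24 (12.5%): Trl (350.0), psq (67.45) and fru (60.77). Polycomb, trithorax and remodelling genes gave 3 of 51 (5.88%): the histone kinase gene JIL-1 (78.84), the remodeller gene kis (75.82, nearest to the start of lncRNA:CR44222) and the Polycomb group gene ph-p (58.45). RNA binding and splicing genes gave 4 of 52 (7.69%), with brat, the sex determination gene Sxl (118.1) and ps (107.8) the highest. Muscle, heart and mesoderm genes gave 3 of 37 (8.11%): the myoblast fusion genes mbc (97.49) and kirre (60.87, inside both kirre and CG32795 and nearest to the start of CG32795) and Msp300 (78.79). Epithelial, tracheal and matrix genes gave 4 of 43 (9.30%), with cno, rib and the polarity gene crb (69.67) the highest. Fat body, gut, hemocyte and metabolic genes gave 4 of 38 (10.5%), with the lipid droplet genes Lsd-2 (114.8) and bmm (86.30) and ush the highest.

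The base composition of the regions dipped at the summit. The window that took in 50 bp to each side of it had a mean GC content of 34.3% (SD 8.35, n = 295), against 41.4% in windows 500 bp to either side and 39.2% over windows taken at every 100th base of the sequence open to the rule. The window was below the mean of its own flanks in 226 of the 295, a count not made for all optimal summits. It was below each of its 2 flanks in 57.3% of the members, against 53.6% of all optimal summits and 56.3% of promoter summits. Under 25% GC lay 45 regions and over 50% lay 15, which were not counted over all optimal summits either. Deeper introns had 36.0% and promoter summits 35.9%, the flanks of promoter summits being richer at 44.5%. In 51 bp steps the mean was 33.9% at the summit, 43.5% at 200 bp before it and 44.0% at 200 bp after it on the plus strand, and the windows 500 bp or more away lay between 39.7% and 42.6%. The dip was thus flanked by shoulders above the level farther out, on both sides. Members above the median signal had 32.7% and those at or below it 35.9%. GC content affects how well fragments amplify and are sequenced, and its part in the dip was not tested.

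**Figure D5:**
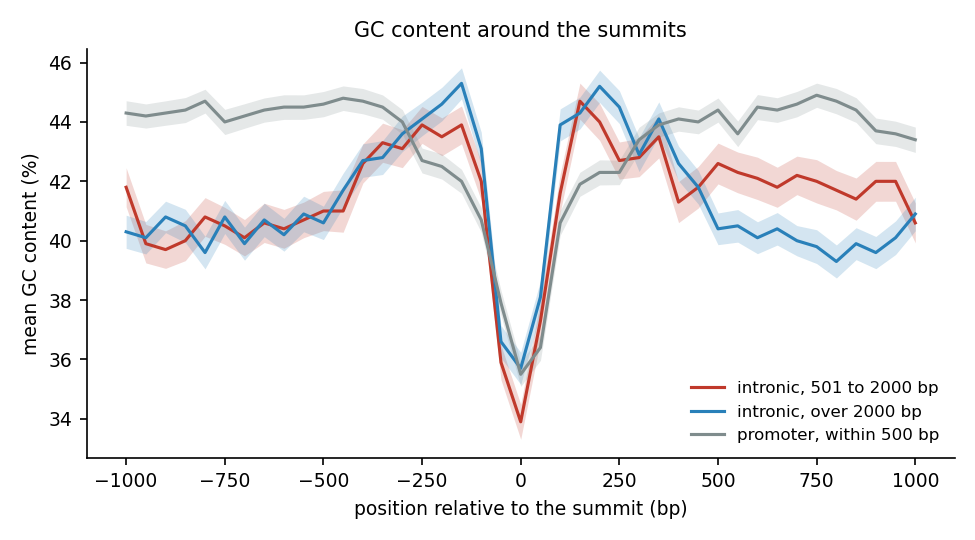
Mean GC content (%) of 51 bp windows by position relative to the summit (bp, plus strand), for the chosen intronic regions, deeper intronic summits and promoter summits, with bands of 1 standard error. All 3 curves dip at the summit, to 33.9% in the chosen regions, and the 2 intronic curves rise above their outer level near 200 bp on each side.

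Runs of A and T of at least 15 bases, as in chif and Dhc64C above, were in 55 of the 295 summit windows (18.6%), against 8.81% of their 590 flanking windows and 9.71% of the windows open to the rule. Promoter summits had 17.4% and deeper introns 9.84%. The homopolymer AAAAAAA was in 13.6% (9.87 to 18.0%) of the members, 10.5% of their flanks, 9.33% of deeper intronic summits, 12.6% of promoter summits, 11.5% of all summits and 10.8% of open windows, and that interval included all of these but the deeper introns.

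Words for known factors were searched on both strands of the same windows, and 7 of 18 were more frequent in the members than in their flanks. TATAAA, the TATA box, was in 59 windows, 20% (15.6 to 25%), against 10.3% of flanks, 14.4% of windows open to the rule and 18.2% of all optimal summits. TAATTA, a homeodomain word, was in 10.8% (7.54 to 15%), against 5.25% of flanks, 8.24% of open windows and 8.93% of all summits. ATTGTT, a Sox word, was in 16.3% (12.2 to 21.0%), against 12%, 11.9% and 11.8% in the same order, and the forkhead word TGTTTAC in 4.07% (2.12 to 7.0%), against 2.20%, 2.61% and 3.28%. Windows as AT-rich as these hold AT-rich words more often, and no adjustment for composition was made.

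Among words richer in G and C, GCCAT, the core of a Pho site, was in 15.3% (11.3 to 19.9%), against 13.6% of flanks, 18.4% of open windows and 16% of all summits. GAGAG, the GAGA factor word, was in 12.5% (8.99 to 16.9%), against 18.8% of flanks, 11.2% of open windows and 10.4% of all summits, and CACACA in 8.47% (5.56 to 12.3%), against 12.7%, 9.18% and 7.03%. Words known from housekeeping promoters were in 1 member or in none. TATCGATA, the DRE, was in 1 of 295 (0.339%, 0.00858 to 1.87%), against 2.40% of promoter summits, 0.206% of open windows and 1.16% of all summits. GGTCACAC, the Motif 1 word, was in 0 of 295 (up to 1.24%), against 1.72% of promoter summits, 0.134% of open windows and 0.899% of all summits. CGATA, which the DRE contains, was in 10.2% (6.97 to 14.2%), against 17.6% of promoter summits, 11.1% of open windows and 13.5% of all summits. For each of these words the share over all summits lay inside the interval of the members, so they do not set the members apart from summits in general. The absence of a word says only that these letters are not in this window.

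A second search used words of 6 bases chosen on the 1597 other optimal summits, so that the members had no part in the choice, and all 8 words were more frequent in the members than in their flanks. The words were chosen for being more frequent at summits than beside them. Optimal summits as a whole share the dip in GC content (36.3%, against 42.8% in flanks). An excess of AT-rich words in the members is therefore no independent check, and no adjustment for composition was made. ATATTA was in 19.0% (14.7 to 23.9%), against 8.14% of flanks and 11.4% of open windows. TATTAA was in 19.3% (15 to 24.3%), against 8.47% and 12.1%, and TTAAAA in 30.2% (25 to 35.8%), against 18.6% and 19.8%, in the same order. AAGTAT was in 11.9% (8.40 to 16.1%), against 4.92% and 7.0%. TACTAA, as in tmod above, was in 6.44% (3.92 to 9.88%), against 2.37% and 4.73%, and CTAATA in 7.46% (4.73 to 11.1%), against 3.22% and 4.95%. For AGCTAT (5.08%, 2.87 to 8.25%) and AGTGTA (4.75%, 2.62 to 7.83%) the intervals included the shares of flanks, 4.41% and 3.73%. Among all optimal summits the shares were 18.1% for ATATTA, 18.6% for TATTAA and 28.9% for TTAAAA, each inside the interval of the members. The words overlap one another in sequence, so their shares are not independent.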

How the data were processed

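Anti-GFP ChIP-seq was measured in 2 biological replicates of whole dati-eGFP embryos. Peaks deposited by the authors use dm6 coordinates, per the labels. No source used here names the aligner or caller. The deposited signal of each peak is the authors' own. The deposited score is capped at 1000, and in the ranked lists that the authors deposited the IDR is a −log10 value. Fragments had a labelled size range of 200 to 800. The lists hold no read counts, so depth is unknown and exact Clopper-Pearson 95% intervals cover counting error only; order-statistic intervals were used for medians.

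Summits were taken from the start and summit offset of each optimal peak, counted from 1, and placed with the Ensembl release 115 annotation, transposable elements left out. Overlap meant at least 1 bp. Sequence came from the RefSeq Release 6 genome. Of 683 distinct listed names, 30 matched no protein-coding gene of the arms. Classification was tested on simulated data. Python 3.11.15, NumPy 2.4.6, SciPy 1.17.1 and matplotlib 3.10.9 were used. No groups could be compared, so no tests were run.

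The regions, lists and words were chosen with earlier results of these data known. Genes named are the hosts of the 20 highest signals, 3 per list by signal, 5 hosts with most regions, 5 largest replicate differences among the 100 highest, and 2 on each side of each distance limit. Btk and tmod were named for the words that their sequences hold. Src64B, Pvf3, Pvr, htl, Hr4, brk, fz2, kuk, CG5953, fray, Shrm and HmgD were named outside that rule, after their values were seen. A gene and a list that the rule would name are not reported here.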

Additional observations from a re-analysis of the deposited data

How the results depend on the processing

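Of 83 alternative values for 10 results under 13 settings, 65 stayed inside the 95% interval of the value reported and 18 did not. Only the values of the chosen regions were recomputed, not those they were set against. Most changes follow from the construction of the alternative. Splitting the distance range gave 7.56% of summits up to 1000 bp and 8.03% beyond 1000 bp, where TATCGATA was in 0. The conservative set gave a median signal of 90.0 and 44.8% in both own sets. Peaks above the median signal gave a median of 118, 71.0% in both own sets, 5.81% with a promoter summit at the start (fewer summits remain) and a GC content of 32.5%. Protein-coding genes alone gave 92.4% nearest to a host start. A promoter distance of 250 bp gave 7.80% and of 1000 bp 21.0% with a promoter summit. A window of 100 bp to each side gave a GC content of 37.0%. With either replicate left out, so that only the other's own set was used, the median signal, on that replicate's own scale, was 55.3 to 57.5 and the share with a promoter summit 6.87 to 7.32%. GC content was 33.0% without replicate 2, outside its interval, and 33.7% without replicate 1, inside it. Shares of first introns (82.2 to 86.5%) and of regions downstream of the nearest start (61.3 to 65.8%) stayed inside their intervals under each alternative run for them.

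Leaving out a replicate gives no value for the share in both own sets or for the replicate ratio. No paired analysis was possible because there was 1 group. Read depth, the control and the scale of the signal are unknown here, the embryo pool mixes tissues, and 2 replicates give no estimate of spread at a single region. Windows and regions share sequence context, so the intervals are too narrow as statements about other embryos.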
